A study of Caenorhabditis elegans with 2 samples.

Results

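The 228 microRNA genes annotated on chromosomes II, III, IV, V and X of *Caenorhabditis elegans* were examined for peaks of the transcription factor ZTF-11. They were taken by annotation alone, as every gene of biotype miRNA in the WBcel235 gene set (the ce11 build), out of 42686 annotated genes on the same chromosomes and 46890 in the nuclear genome. Of the 228, 224 carry a name of the mir, let-7, lin-4 or lsy-6 kind in RefSeq, and the other 4 carry a clone name. The value of a gene was the signal of the highest peak with its summit in a window from 1000 bp upstream to 200 bp downstream of the gene's 5′ end. The 5′ end is that of the hairpin precursor for all but 6 genes, let-7 among them, whose annotation extends farther upstream, so a promoter that lies farther away is outside the window.

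The peaks came from chromatin immunoprecipitation and sequencing (ChIP-seq) of eGFP-tagged ZTF-11 in whole L4 larvae of both sexes. There was 1 group of 2 biological replicates, both of strain OP236, with the genotype *unc-119(ed3)* III; *wgIs236*, in which *wgIs236* is the transgene that supplies tagged ZTF-11. The labels name the antibody by its target alone. Whole animals mix all tissues, so a peak cannot be assigned to a cell type. Because there is no second condition, the data describe where peaks lay and how far the replicates shared them.

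A microRNA gene is transcribed into a long primary RNA from which Drosha releases a hairpin and Dicer then a short mature strand. The mature strand pairs with target messenger RNAs mainly through its seed (bases 2 to 8), and genes with the same seed form a family that can share targets. ZTF-11 is a zinc finger protein of the Myt1 family, which in the worm acts in the making of neurons by keeping genes of other cell types low. MicroRNAs were discovered in this animal as timers of larval development.

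Most peaks in the lists are weak by design, since they were relaxed calls made as input for a reproducibility step. The pooled list held 30000 nuclear peaks with signal from 5.80 to 77.1, that of replicate 1 held 29985 and that of replicate 2 held 22869. The deposited −log10 q reached 0.629 in replicate 1 and was 2.58 or more in replicate 2, and the sources used here do not say whether it was computed in the same way for both. Summits of replicate 2 lay in sequence richer in G and C, with a median of 43.3% within 100 bp, where those of replicate 1 had 33.8%. The part of base composition in the results below was not tested. Signal values are the authors' own, on a scale that is not stated, and are compared only within a list. No read counts are given, so depth is unknown.

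The mature strands of the families described below are printed here, from the RefSeq genome, with the seed in capitals. The first 4 are the let-7 family, the next 6 the mir-51 family, then mir-80 with its relatives, mir-238 with mir-239.1 and mir-239.2, and mir-90 with mir-62, which had a pooled signal of 8.96.
let-7: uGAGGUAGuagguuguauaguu
mir-48: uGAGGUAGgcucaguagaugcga
mir-84: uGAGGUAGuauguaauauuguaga
mir-241: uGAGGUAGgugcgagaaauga
mir-51: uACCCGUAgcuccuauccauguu
mir-52: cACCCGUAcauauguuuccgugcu
mir-53: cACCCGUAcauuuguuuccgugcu
mir-54: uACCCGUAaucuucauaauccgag
mir-55: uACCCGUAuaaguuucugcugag
mir-56: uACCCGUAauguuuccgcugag
mir-80: uGAGAUCAuuaguugaaagccga
mir-81: uGAGAUCAucgugaaagcuagu
mir-82: uGAGAUCAucgugaaagccagu
mir-58.1: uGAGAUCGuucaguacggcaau
mir-238: uUUGUACUccgaugccauucaga
mir-239.1: uUUGUACUacacauagguacugg
mir-239.2: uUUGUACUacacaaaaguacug
mir-90: uGAUAUGUuguuugaaugccccu
mir-62: uGAUAUGUaaucuagcuuacag

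The let-7 strand and its 3 relatives share the seed GAGGUAG, and the 6 genes of the mir-51 family share ACCCGUA. The genes mir-80, mir-81 and mir-82 share GAGAUCA, while mir-58.1, which is grouped with them as the worm counterpart of the fly microRNA bantam, differs in the last base of the seed. Mature sequences were found for 227 of the 228 genes.

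One of the 228 genes had a peak in the list that the authors thresholded for reproducibility, a share of 0.439%, where 0.199% of 17095 protein-coding genes on the same chromosomes had one. This gene was mir-90, on chromosome III from 8873987 to 8874084 on the minus strand, in an intron of K01F9.2 and on the same strand as that gene. The peak at mir-90 had a signal of 29.8 in the pooled list, where it ranked 36 of 30000, with its summit 290 bp upstream of the hairpin. Signal at mir-90 was 11.0 in replicate 1, at rank 3657, and 10.8 in replicate 2, at rank 235. Both replicate summits lay close to the pooled one, at 64 bp and 50 bp from it. No other member had a thresholded peak, within the window or within 300 bp of the gene.

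The peak at mir-90 is shown because it is the only thresholded one. It spans III:8874234-8874513 in ce11 and is written on the minus strand, the strand of the gene. Capitals mark the motif GAGAGA on either strand, which was found at 5 positions, some of them overlapping. The motif AAGTT, the core of the site bound by proteins of the Myt1 family, did not occur in these 280 bases.
mir-90 peak: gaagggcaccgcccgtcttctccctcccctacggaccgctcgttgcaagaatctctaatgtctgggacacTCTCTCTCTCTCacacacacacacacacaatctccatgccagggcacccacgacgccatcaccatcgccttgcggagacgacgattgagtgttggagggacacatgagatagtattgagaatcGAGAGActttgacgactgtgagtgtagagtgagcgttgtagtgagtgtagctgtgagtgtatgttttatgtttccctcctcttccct

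The second highest member was mir-52, on chromosome IV from 14034008 to 14034107 on the plus strand, between protein-coding genes. The mir-51 family, to which it belongs, is broadly expressed and required for embryonic development. The pooled peak at mir-52 had a signal of 22.2 and ranked 76, with the summit inside the hairpin, 27 bp downstream of its 5′ end. Replicate 1 gave mir-52 a signal of 27.9 at rank 21, and replicate 2 a highest signal of 12 at rank 143, 257 bp upstream of the 5′ end. The replicate 2 summit nearest to the pooled one had a signal of 7.83 and ranked 895. mir-52 was the single member with a peak among the 1000 strongest of both replicates. Its pooled signal lay below the lowest of the thresholded list, which was 27.2. The summit also lay in the windows of 4 other non-coding genes, so the peak cannot be tied to mir-52 alone.

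The peak at mir-52 covers the whole hairpin, in capitals, and spans IV:14033895-14034174 on the plus strand of ce11.
mir-52 peak: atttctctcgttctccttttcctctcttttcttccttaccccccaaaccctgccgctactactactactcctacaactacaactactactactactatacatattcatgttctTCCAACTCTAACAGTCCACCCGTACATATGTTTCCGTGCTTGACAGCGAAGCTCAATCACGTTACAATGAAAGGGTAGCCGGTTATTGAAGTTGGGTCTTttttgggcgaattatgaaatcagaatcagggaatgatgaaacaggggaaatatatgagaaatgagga

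The 3 genes mir-54, mir-55 and mir-56, of the same seed family, lie in one cluster on X, in an intron of F09A5.3 and on the opposite strand. They shared their highest pooled peak, with a signal of 19.5 at rank 141 and its summit 381 bp upstream of mir-54, the first of the cluster. The summit also lay in the window of the non-coding gene F09A5.11, so the peak cannot be tied to the cluster alone. Replicate 2 gave the cluster a highest signal of 13 at rank 104, and replicate 1 had no peak in any of the 3 windows. The replicate 2 summit nearest to the pooled one, 77 bp from it, had a signal of 6.31 and ranked 2073. A further annotated gene, F09A5.15, named cel-mir-55b by Ensembl, overlaps mir-55 on the other strand and had its own peak with a pooled signal of 16.5. Its mature strand has the seed AACCGAU, shared by no other member, so it is not of this seed family. The highest signal in its window was 13.8 in replicate 1 and 9.19 in replicate 2, the second with its summit more than 200 bp from the pooled one. Peaks thus lay on both sides of this cluster. Of the other family members, mir-51 had a pooled signal of 6.23, near the bottom of the list, and mir-53 had none, although replicate 2 held a peak at each of them, with signals of 5.73 and 6.68.

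The peak upstream of mir-54 spans X:13145335-13145614 in ce11 and is written on the minus strand, the strand of the cluster. Capitals mark AAGTT, which is read here as its reverse complement AACTT.
mir-54 peak: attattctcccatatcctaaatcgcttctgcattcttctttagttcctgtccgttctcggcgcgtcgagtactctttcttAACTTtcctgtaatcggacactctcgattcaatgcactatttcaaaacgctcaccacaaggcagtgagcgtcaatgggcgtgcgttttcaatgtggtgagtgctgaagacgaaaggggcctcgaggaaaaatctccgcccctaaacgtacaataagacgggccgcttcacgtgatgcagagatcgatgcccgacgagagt

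**Figure D1:**
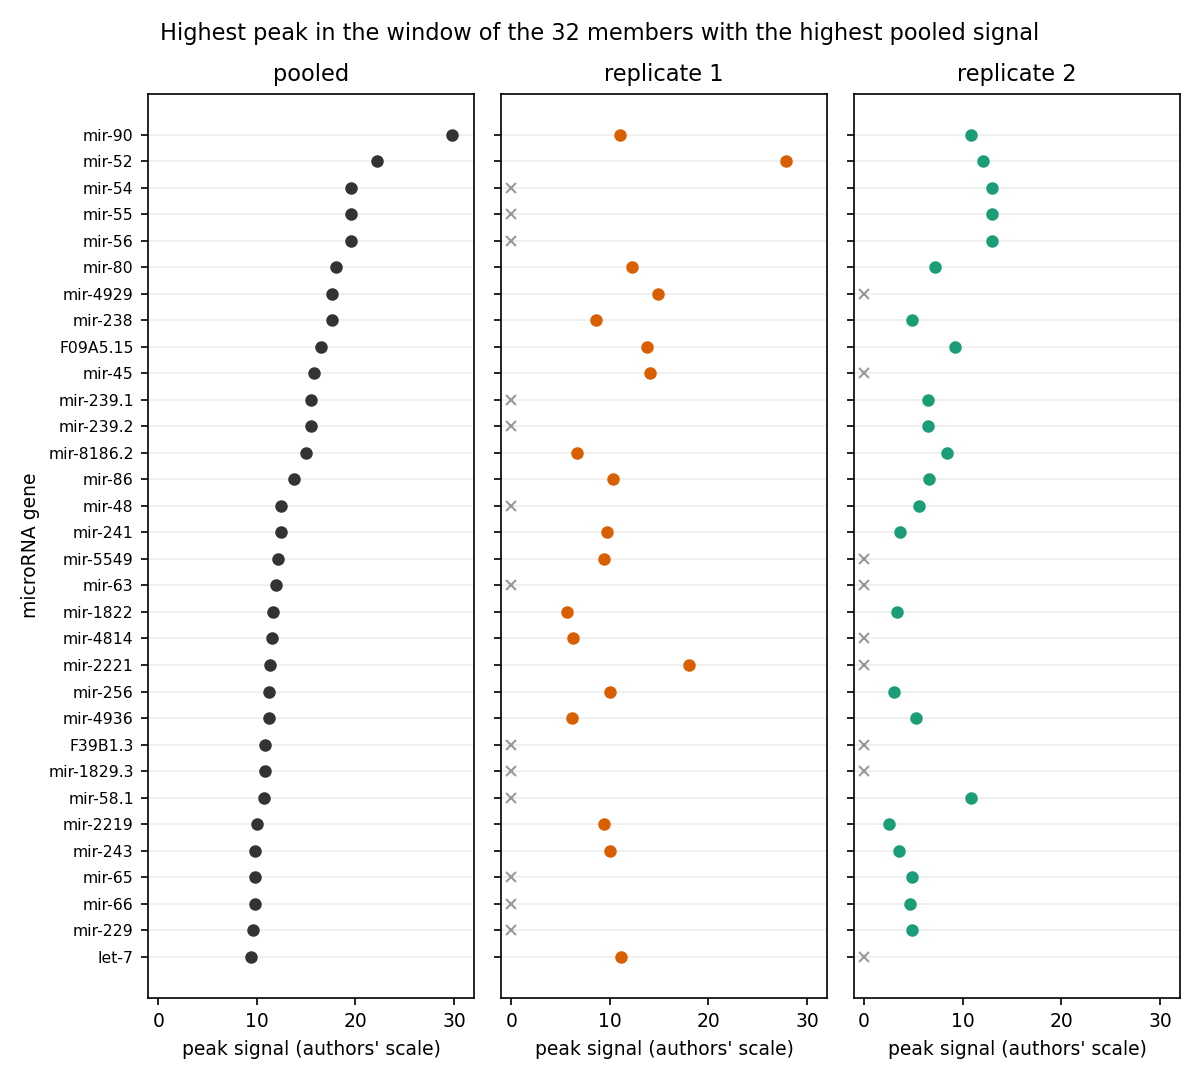
Highest peak signal in the window for the 32 microRNA genes with the highest pooled signal, in the pooled list and in each replicate. Points are signal on the authors' scale, to be compared within a panel only, and crosses at 0 mark genes with no peak in that list; mir-90 leads the pooled list with 29.8 and mir-52 leads replicate 1 with 27.9.

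On chromosome III, 3 members stood within 8717 bp of each other and were all among the 8 highest. The genes mir-80, mir-238 and mir-90 lie there in that order on the chromosome, on the minus strand, and each had a separate peak. mir-80 belongs to the family that restrains TGF-beta signalling in the worm, and mir-238 is known for effects on lifespan. mir-80 had a pooled signal of 18.0 at rank 218, with signals of 12.2 in replicate 1 and 7.19 in replicate 2. Its summit was 144 bp downstream of the 5′ end, past the hairpin. The summit also lay in the window of the non-coding gene K01F9.6, so the peak cannot be tied to mir-80 alone. mir-238 had a pooled signal of 17.6 at rank 244, 399 bp upstream, with signals of 8.55 in replicate 1 and 4.81 in replicate 2. Both replicates thus held a peak in all 3 windows. For mir-238 the replicate 2 peak did not lie within 200 bp of the pooled summit. The 7 further pooled peaks drawn for the locus had signals from 5.98 to 8.91.

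The peaks at mir-80 (III:8865083-8865362) and mir-238 (III:8867684-8867963) are both written on the minus strand of ce11. Capitals mark the part of the hairpin inside the mir-80 peak, and in the mir-238 peak the motif AAGTT on either strand, which occurred 4 times.
mir-80 peak: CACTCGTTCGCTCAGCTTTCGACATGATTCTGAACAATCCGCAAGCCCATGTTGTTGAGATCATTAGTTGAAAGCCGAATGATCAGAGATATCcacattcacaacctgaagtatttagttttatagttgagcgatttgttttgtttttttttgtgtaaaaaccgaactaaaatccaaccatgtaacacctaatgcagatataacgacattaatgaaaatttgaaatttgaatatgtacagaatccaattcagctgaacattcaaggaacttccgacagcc
mir-238 peak: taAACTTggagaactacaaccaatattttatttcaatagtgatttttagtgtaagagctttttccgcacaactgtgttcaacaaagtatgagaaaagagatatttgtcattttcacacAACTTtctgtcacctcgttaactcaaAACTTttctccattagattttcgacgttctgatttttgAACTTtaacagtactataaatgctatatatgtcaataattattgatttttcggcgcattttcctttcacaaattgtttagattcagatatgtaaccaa

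**Figure D2:**
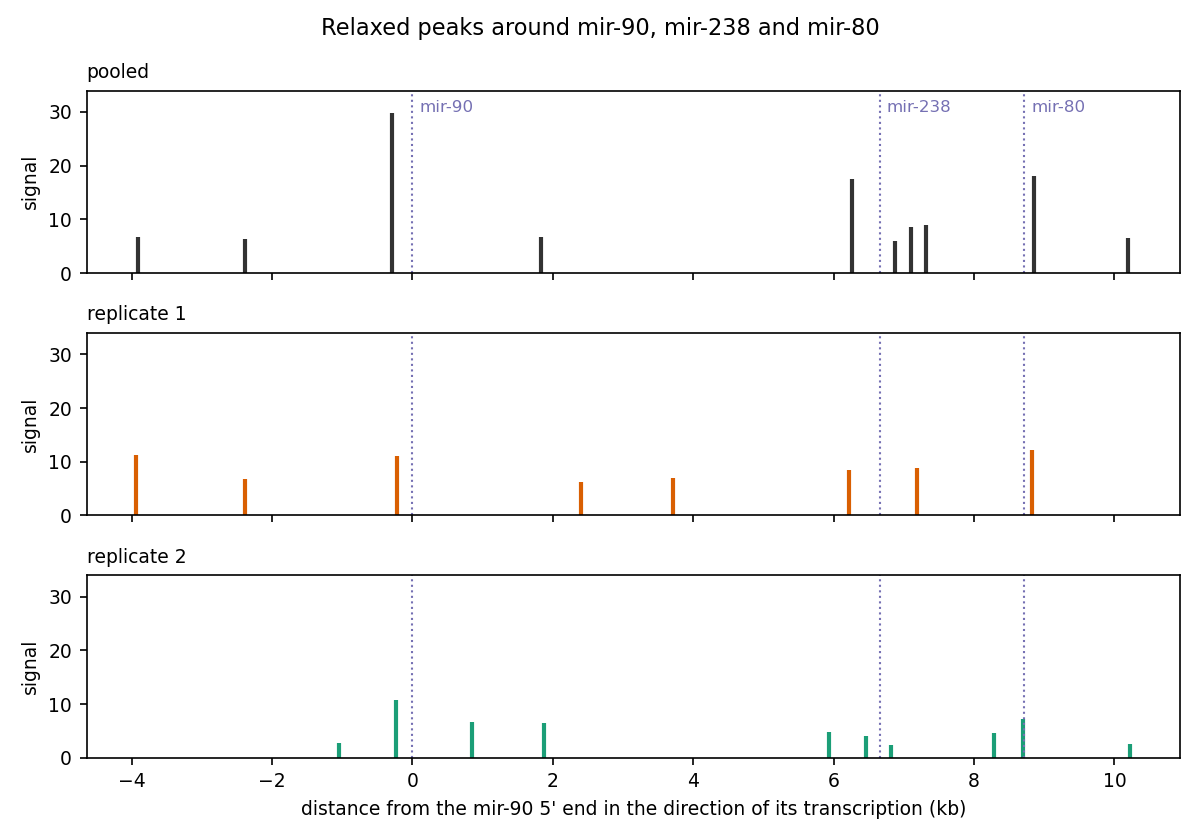
Relaxed peaks along the mir-90, mir-238 and mir-80 locus, by distance from the mir-90 5′ end in kb in the direction of transcription, in the pooled list and each replicate. Lines give peak signal on the authors' scale and dotted lines the 5′ ends of the 3 genes; the 3 tallest pooled lines, at 29.8, 17.6 and 18.0, stand beside the genes.

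Among the 12 members with the highest pooled signal were also mir-4929, mir-45, mir-239.1 and mir-239.2. mir-4929, in an intron of E01G4.3 on chromosome II, had a pooled signal of 17.6 and a replicate 1 signal of 14.9. mir-45, on chromosome II between protein-coding genes, had 15.8 in the pooled list and 14.1 in replicate 1. Neither had a peak in replicate 2. The pooled summit at mir-45 also lay in the window of the non-coding gene ZK930.13, so that peak cannot be tied to mir-45 alone. mir-239.1 and mir-239.2, which share the seed of mir-238 and affect stress resistance, are transcribed away from each other on X with 1 pooled peak of signal 15.5 between them. That peak was matched in replicate 2 with a signal of 6.51, and replicate 1 had none in either window. Its pooled summit also lay in the windows of the non-coding genes C34E11.9 and C34E11.20, so it cannot be tied to the microRNA genes alone.

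In all, 82 of the 228 genes (36.0%) had a pooled peak in the window, where 34.5% of protein-coding genes did, a share near the background. The 82 genes held 70 distinct peaks, since clustered genes share windows. Their signal ran from 5.86 to 29.8 with a median of 8.41, and protein-coding genes with a peak had a median of 7.97. A peak at or above the median signal of the list was found for 57 members (25%), against 18.8% of protein-coding genes. Of the genes with no pooled peak, 44 had a peak in a replicate list and 102 had none.

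The shares lay farther apart at the upper end of the list. Among the 1000 strongest pooled peaks, 11 peaks lay in the windows of 14 members, a share of 6.14% of the genes, against 1.83% of protein-coding genes. This was not particular to microRNA genes. The same share was 7.35% for snoRNA genes, 4.42% for snRNA genes and 4.03% for tRNA genes, but 0.596% for piRNA genes. The replicates did not give the same picture for the members. In replicate 2 the share of members was 4.39% (10 genes), against 1.62% of protein-coding genes. In replicate 1 it was 1.75% (4 genes), against 1.68%, a share near the background. The 4 genes of replicate 1 were mir-52, mir-2221, mir-4929 and mir-45. Those of replicate 2 were mir-54, mir-55, mir-56, mir-52, mir-58.1, mir-90, F09A5.15, mir-233, mir-8186.2 and lin-4. mir-2221 and mir-233 were named after their values were seen, and mir-54, mir-55 and mir-56 share 1 peak. No test was run on these shares, because the members were chosen with earlier results of the data known.

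Over all relaxed peaks the order of microRNA and protein-coding genes turned between the replicates. In replicate 1, 54 members (23.7%) had a peak, against 34.9% of protein-coding genes. In replicate 2, 80 members (35.1%) had one, against 23.6% of protein-coding genes. Clustered genes share peaks, and the highest peaks of these members had 53 distinct summits in replicate 1 and 61 in replicate 2. Median G and C content was 36.7% in the 228 windows of microRNA genes and 34.9% in those of protein-coding genes. It was 36.7% in the 54 windows with a replicate 1 peak and 40.4% in the 80 with a replicate 2 peak. Within 100 bp of the distinct summits at members it was 35.8% in replicate 1 and 47.8% in replicate 2. Among other small RNA genes, snoRNA genes also had the higher share in replicate 2, at 36.0% in replicate 1 and 55.1% in replicate 2. For piRNA genes the order was the opposite, at 41.5% in replicate 1 and 7.35% in replicate 2.

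**Figure D3:**
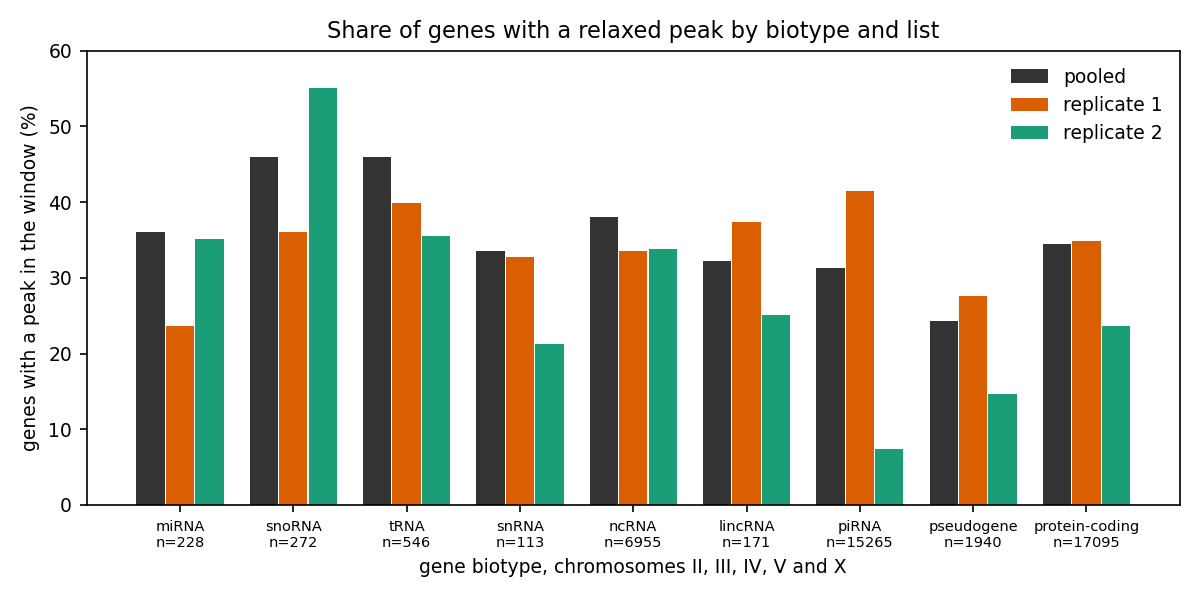
Share of genes in % with a relaxed peak in the window by gene biotype on chromosomes II, III, IV, V and X, in the pooled list and each replicate, with the number of genes under each name. The pooled bars of microRNA and protein-coding genes are close, at 36.0% and 34.5%, while the replicate 2 bar is above the replicate 1 bar for microRNA genes and below it for protein-coding genes. Genes that share a peak are counted separately.

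Peaks in both replicates were found in the windows of 21 members (9.21%), against 8.91% of protein-coding genes. A stricter count asked for a peak of each replicate within 200 bp of the pooled summit. It held for 11 members (4.82%), against 3.42% of protein-coding genes. Besides mir-90, mir-52 and mir-80 these were mir-8186.2, mir-241, mir-1822, mir-256, mir-4936, mir-236, mir-356.1 and mir-84, with pooled signals from 6.75 to 15.0. In 6 of those 8 the replicate 1 peak ranked from 18847 to 29829 of 29985, so sharing there rests on peaks in the lower part of a list. The pooled summits at mir-8186.2, mir-256, mir-4936 and mir-356.1 also lay in the window of a protein-coding gene. These genes were *gmeb-1*, *mec-1*, *nduf-9* and *tomm-7*, so the peaks cannot be tied to the microRNA genes alone. The pooled summits at mir-241, mir-236 and mir-356.1 lay in the window of another non-coding gene, with the same limit. For 23 of the 82 members no replicate peak lay within 200 bp of the pooled summit. Across the 21 members, the Spearman rho between replicate signals was 0.414, and across all 228, with 0 where there was no peak, it was 0.0618. Some of these genes share a peak, and no test was made on either value.

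The heterochronic microRNAs, which time the larval stages, had a pooled peak at 4 of 6 genes, beside 36.0% of all microRNA genes and 34.5% of protein-coding genes. None of the 6 had one of the 1000 strongest pooled peaks, which 6.14% of all microRNA genes and 1.83% of protein-coding genes had, so a count of 0 is near the background. let-7, which acts at the change from larva to adult, had a pooled signal of 9.44 at rank 7307, 458 bp upstream of the annotated primary transcript, with a replicate 1 signal of 11.1 and no replicate 2 peak. Its relatives mir-48 and mir-241, which act earlier with mir-84 by lowering *hbl-1*, lie 1774 bp apart on chromosome V and had a peak each, with pooled signals of 12.5 and 12.4. At mir-48 replicate 2 had a signal of 5.61 and replicate 1 no peak. At mir-241 the signals were 9.72 in replicate 1 and 3.63 in replicate 2, with summits 103 bp and 15 bp from the pooled one. mir-84 had 6.75, at rank 21512. The 4 with a pooled peak are the genes with the let-7 seed, and only mir-241 and mir-84 of them had a peak in both replicates. The founding gene lin-4, which represses *lin-14*, had no pooled peak, and its replicate 2 signal of 7.74 ranked 942. mir-237, with the same seed as lin-4, had a replicate 1 signal of 10.8 and no peak in the other lists.

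Of the 5 neuronal microRNAs none had a pooled peak, where 36.0% of all microRNA genes and 34.5% of protein-coding genes had one, and with so few genes a count of 0 is not far from these shares. lsy-6, which sets the left-right difference of the ASE taste neurons by repressing *cog-1*, had a replicate 1 signal of 5.75 at rank 28032, near the bottom of that list. mir-124, a conserved microRNA of sensory neurons, had a replicate 2 signal of 5.07 at rank 4274. mir-791, which acts in neurons that sense carbon dioxide, had a replicate 1 signal of 8.26. mir-790 and mir-273 had no peak in any list. mir-228, a microRNA of glia, had a pooled signal of 7.96 and a replicate 2 signal of 4.43, with both summits in the hairpin.

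Of the 14 embryonic microRNAs 12 had a pooled peak, where 36.0% of all microRNA genes and 34.5% of protein-coding genes had one, but clustered genes among them share summits. In replicate 1 a peak was found for 2 of the 14 and in replicate 2 for all 14, where 23.7% and 35.1% of all microRNA genes had one. The mir-35 family, needed for embryonic viability, has 8 genes with the seed CACCGGG, and 7 of them (mir-35 to mir-41) form 1 cluster on chromosome II. There mir-35 and mir-36 shared a peak of signal 8.45 and the other 5 shared one of 8.09, at ranks 11122 and 12856. In replicate 2 the highest peak was the same weak one for all 7, with a signal of 3.18, and replicate 1 had a peak in the mir-35 window, with a signal of 8.90. mir-42, outside the cluster, had a replicate 2 signal of 2.04 and no pooled peak.

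In the bantam family, mir-58.1 had a pooled signal of 10.7 and a replicate 2 signal of 10.8 at rank 229, the summits 8 bp apart, with no replicate 1 peak. mir-81 had a replicate 2 peak alone, with a signal of 4.88, and mir-82 had none. Of the 6 genes with the seed GAGAUCA, mir-80 was the single one with a pooled peak. The other genes with that seed were mir-2209.1, which had a replicate 2 signal of 3.18, and mir-58.2 and Y73B6A.17, which had no peak in the 3 relaxed lists. Among microRNAs of stress and lifespan, mir-83, mir-34 and mir-246 had pooled signals of 6.95, 6.70 and 6.43, all below the median of 7.71 for the whole list. mir-34, which acts in the response to DNA damage, and mir-83 had their summits in the hairpin and a peak in replicate 1, and mir-246 had one in replicate 2. mir-1 and mir-71 are not on these chromosomes and were not analysed here.

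**Figure D4:**
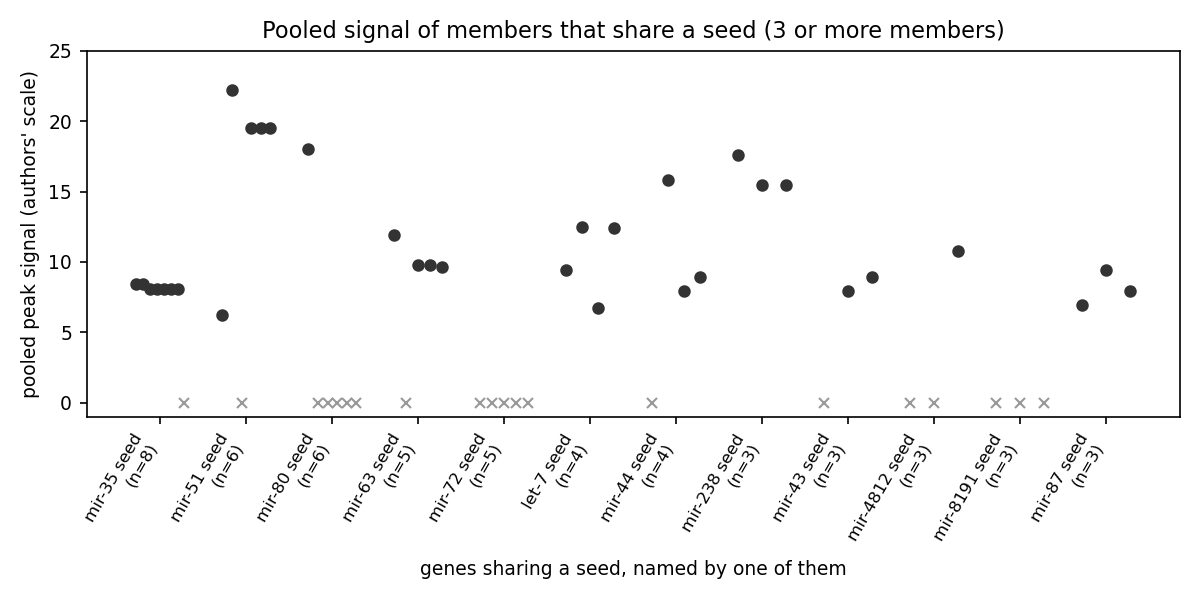
Pooled peak signal on the authors' scale of genes that share a seed, for seeds found in 3 or more members, with each family named by one gene and crosses at 0 for genes with no pooled peak. The seeds AGAGUGG and UGACCCU, found only in mir-2217 genes, are not drawn and had a pooled peak at 1 and 0 of 4 genes. Genes of a cluster that share a peak stand at one height, such as mir-54, mir-55 and mir-56 at 19.5, and the 4 genes with the let-7 seed lie between 6.75 and 12.5.

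Of the 82 summits, counted per gene, 62 lay upstream of the 5′ end, 11 in the hairpin and 9 downstream outside it, with a median position 298 bp upstream. In bins of 200 bp the share of members with a pooled summit was highest just downstream of the 5′ end, at 11.0%, against 6.73% of protein-coding genes in the same bin. The bins of the members varied from 3.95% to 11.0%, and one bin far upstream of the window reached 9.65%. By annotation 31 summits lay in introns and 11 in exons of protein-coding genes, and 40 between such genes. Counted the same way, 9 lay in the promoter window of a protein-coding gene as well, and 28 in that of another non-coding gene other than piRNA genes. The 28 include those of mir-58.1, mir-51 and mir-35 to mir-41.

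**Figure D5:**
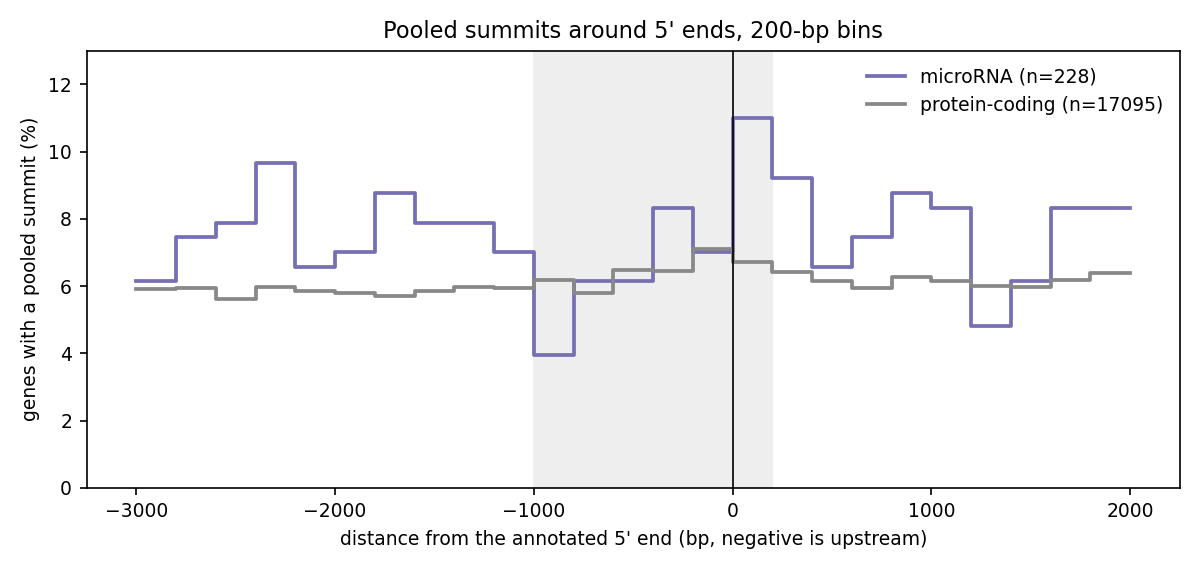
Share of genes in % with a pooled summit in bins of 200 bp, from 3000 bp upstream to 2000 bp downstream of the annotated 5′ end, for 228 microRNA genes and 17095 protein-coding genes; the grey band is the window used. The microRNA line is uneven and peaks at 11.0% just downstream of the 5′ end, where protein-coding genes stand at 6.73%.

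The pooled shares were close for hairpins inside and outside protein-coding genes. A peak was found for 21 of 59 genes (35.6%) inside a protein-coding gene on its strand, for 11 of 28 (39.3%) inside one on the opposite strand and for 50 of 141 (35.5%) between protein-coding genes. The replicates differed in this split. Inside a gene on the opposite strand the share was 7.14% in replicate 1 and 50% in replicate 2, on the same strand 25.4% and 42.4%, and between genes 26.2% and 29.1%. Genes of a cluster were counted separately here. On the opposite strand, mir-35 to mir-41 share their highest replicate 2 peak, as do mir-54, mir-55 and mir-56. The pooled share of 39.3% also rests largely on these clusters, whose genes share pooled peaks. By chromosome the share was highest on III, with 17 of 27 genes (63%), where 37.4% of protein-coding genes had a peak. It was 34.7% on II, 28.0% on IV, 35.7% on V and 32.4% on X, where protein-coding genes stood at 33.4%, 33.7%, 32.7% and 37.1%. These splits were not tested.

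Motifs were counted within 100 bp of the 70 distinct summits. AAGTT on either strand was present at 30 of them (42.9%), against 57.4% of all 25423 pooled summits on the same chromosomes. The longer AAAGTTT, which contains AAGTT, was present at 6 (8.57%), against 15.3%. GAGAGA was present at 11 (15.7%), against 11.8%, but within 50 bp the order turned, at 5.71% of member summits against 6.18% of all summits. In the full windows, AAAGTTT was found for 56.1% of microRNA genes and 63.8% of protein-coding genes, and GAGAGA for 61.0% and 50.6%. Summits at members were richer in G and C than all pooled summits, with medians of 38.8% and 35.8%, and its part in these shares was not tested.

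Genes of the microRNA pathway were viewed in the same way over all nuclear chromosomes. The first list held 24 genes for processing and effector proteins and for other factors, such as *puf-9* and *lin-28*. Of the 24, 14 had a pooled peak, where 35.0% of protein-coding genes did, and 4 had one among the 1000 strongest, where 1.88% did. These were *puf-9*, a Pumilio gene acting beside let-7 (signal 39.2), *ain-1*, a gene of the GW182 family (30.1), *vig-1*, a gene of the silencing complex (20.6), and *nhl-2*, a cofactor of that complex (15.7). *puf-9* and *ain-1* had thresholded peaks, where 0.175% of protein-coding genes did. Of 21 known or proposed microRNA targets 8 had a pooled peak, a share near the 35.0% of protein-coding genes. Of the same 21 targets, 1 had one of the 1000 strongest peaks, where 1.88% of protein-coding genes did. The highest were *hbl-1*, the transcription factor gene lowered by mir-48, mir-84 and mir-241 (14.7), *lin-28*, the RNA-binding protein gene lowered by lin-4 (12), *daf-12*, the steroid receptor gene (11.4), and *egl-1*, the cell death gene (11.1). *lin-14* had no pooled peak and had replicate signals of 10.5 and 3.24. Both lists, which share *lin-28*, were chosen with earlier results of these data known.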

How the data were processed

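ChIP-seq of tagged ZTF-11 in whole L4 larvae gave the peak lists used, in ce11, for 2 biological replicates of 1 group. Per the descriptions deposited with them, they hold relaxed peaks of either replicate and of the pooled reads, called with control alignments, and a list thresholded by IDR. Neither a peak caller nor an aligner is given in the sources used here. The authors gave a signal value for each peak, on a scale not stated, and a deposited −log10 q value that was not used to choose peaks.

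Genes came from Ensembl release 115 (WBcel235, the same coordinates as ce11), symbols and sequence from RefSeq. Each gene had 1 window, set at its annotated 5′ end, and 1 value a list, the highest signal of a peak with its summit there. Mitochondrial peaks were left out. Members are described by counts and medians beside those of protein-coding genes, with no test, since there is 1 group and no read counts. The members, lists and rules were chosen with earlier results of these data known. Named genes are those with a thresholded peak, the 12 with the highest pooled signal, those with peaks of both replicates within 200 bp of the pooled summit, members of role lists with a pooled peak, and let-7, lin-4, lsy-6, mir-1, mir-71, mir-124 and mir-34. Outside this rule, members of role lists with no pooled peak and genes that share a printed or described seed are named to complete their group, and mir-2221 and mir-233 were named with their values known. Of the pathway genes, the 4 highest in each list are named, and *lin-14* outside the rule. *ntl-1* was not matched by symbol. The hairpin 5′ end was added as an alternative after the data were seen. Counting was tested on simulated peaks. Python 3.11.15, numpy 2.4.6, pandas 2.3.3 and matplotlib 3.10.9 were used.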

Additional observations from a re-analysis of the deposited data

How the results depend on the processing

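Most counts depend on how wide the window is and on which list is used. With 2000 bp upstream and 500 bp downstream, 139 members had a pooled peak (61.0%, against 56.6% of protein-coding genes), 74 had peaks in both replicates (32.5% against 24.4%) and 27 had peaks of both replicates near the pooled summit (11.8% against 5.74%). With 500 bp and 100 bp, 10 had peaks in both replicates (4.39% against 2.88%) and 8 had one of the 1000 strongest pooled peaks (3.51% against 1.16%). With the 10000 strongest peaks of each replicate, 6 members had peaks in both (2.63% against 2.04%) and 4 had both near the pooled summit (1.75% against 1.03%), which was also 4 with summits within 100 bp (1.75% against 1.71%). In place of the pooled list, each replicate alone gave 54 to 80 members with a peak and 4 to 10 with one of the 1000 strongest, the lower values with replicate 1. The count of 1 thresholded peak did not move under the windows, overlap and cluster settings. The hairpin 5′ end gave 82 members, the same as the gene's. AAGTT was present within 50 bp of 20% of member summits, against 34.9% of all pooled summits, and within 200 bp of 77.1%, against 81.6%. No paired analysis was possible because there is 1 group and no test. Depth is unknown.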

Other observations

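Numbers of microRNA genes follow the order in which they were registered. With genes split by number, a choice made with the values known, 59 of 125 genes numbered below 1000, with let-7, lin-4 and lsy-6, had a pooled peak (47.2%), against 22 of 102 numbered 1000 or above (21.6%). The replicates differed in this split. In replicate 2 the shares were 48.0% and 19.6%, and in replicate 1 they were 24.0% and 23.5%. Protein-coding genes on the same chromosomes stood at 34.5% in the pooled list, 23.6% in replicate 2 and 34.9% in replicate 1. Members with a clone name were placed by their Ensembl number, and 1 member with no number was left out. Median G and C content was 37.4% in the windows of genes with the lower numbers and 35.6% in those with the higher. The split was not tested, and genes of a cluster such as mir-35 to mir-41 share peaks.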
